A study of Saccharomyces cerevisiae with 31 samples.

Results

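Metalloreductases and copper transporters of budding yeast (Saccharomyces cerevisiae) were followed as cells grew large without dividing. The 10 genes were found by their names in a table of 6713 genes, and the group was chosen by the steep score of FRE7 in elutriated, arrested cells. They are the 8 metalloreductase genes FRE1 to FRE8 and the 2 high-affinity copper transporter genes CTR1 and CTR3, and all 10 were in the table. Because scores of the elutriated arrest picked the group, the genes' own values there are given below as a description, and no test of any of the 10 is made.

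The 31 RNA-seq libraries form 6 series of whole cultures grown on rich medium with ethanol, each with 1NM-PP1, a bulky kinase inhibitor. Cdc28-as cells carry an analog-sensitive allele of the cyclin-dependent kinase Cdc28, which this inhibitor blocks, and gave 4 series. In elutriation 1 (5 libraries, 15.23 to 50.77 fl of cell size), elutriation 2 (3 libraries, 14.92 to 41.8 fl) and elutriation 3 (3 libraries, 18.61 to 66.46 fl) small cells were first collected by centrifugal elutriation and the inhibitor was added afterwards, and in the time course (8 libraries, 21.56 to 44.02 fl) the culture had not been elutriated. Wild-type (WT) cells, which lack that allele, gave 6 libraries after elutriation, taken at 2 to 7 h, and 6 without it, taken at 0 to 6 h; both are controls for the inhibitor. A known amount of another yeast, Candida albicans, went into each sample ahead of RNA extraction. Size and time in arrest grew together in the Cdc28-as series, so their parts cannot be told apart. In whole cultures, a change in the share of cells that express a gene and a change in its RNA per cell cannot be told apart either.

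Yeast reduces copper and iron at its surface before high-affinity uptake. Metalloreductases pass electrons across the membrane to ferric iron and cupric copper. Ctr1 and Ctr3 then import the reduced copper, and the oxidase Fet3 with the permease Ftr1 imports the iron. Fet3 itself carries copper, so high-affinity iron uptake depends on copper supply. When copper is scarce the activator Mac1 turns on CTR1, CTR3, FRE1 and FRE7. When iron is scarce the activator Aft1 turns on most of the reductase genes, together with genes for iron and siderophore uptake (siderophores are small iron chelators).

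The stretches upstream of the genes are shown here for the copper and iron elements that these activators bind. TGCACCC was absent before FRE7, CTR1, FRE1 and CTR3 and present before the other 6 genes, while TTTGCTC was found before FRE1 and CTR1 alone. The 500 bases before each coding start were searched on both strands of build R64 for TTTGCTC, the copper element that Mac1 binds. TGCACCC, a form of the iron element that Aft1 binds, was searched likewise and is called the iron element below. A position is that of the match's base farthest from the coding start. FRE1 held 3 copper elements, 286, 269 and 96 bases before its start, and CTR1 held 2, 334 and 311 bases before its start. Among 6000 genes, 8.62% held at least 1 such match and 0.350% held 2 or more. The core of the iron element, CACCC, was also searched and matched 221 bases before FRE1 and 442 before CTR3. It was found before 8 of the 10 genes and before 33.45% of the 6000, and it is not marked below. The lack of TGCACCC before FRE1, which holds the core, therefore does not show that Aft1 has no site there. The FRE1 stretch is chrXII:568267-568486 and the CTR1 stretch chrXVI:785848-785927, both on the plus strand, with the copper element in capitals on either strand.
FRE1: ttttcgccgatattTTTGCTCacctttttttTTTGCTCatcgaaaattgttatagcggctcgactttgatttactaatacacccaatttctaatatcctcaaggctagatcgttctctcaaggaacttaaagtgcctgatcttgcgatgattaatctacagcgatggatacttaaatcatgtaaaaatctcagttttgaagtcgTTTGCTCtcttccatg
CTR1: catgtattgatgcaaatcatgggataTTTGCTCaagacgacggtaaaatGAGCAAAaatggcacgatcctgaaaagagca

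CTR3 and FRE7 held no TTTGCTC in that window. In the R64 genome a Ty2 retrotransposon of 5959 bases lies 102 bases before the CTR3 coding start. On the far side of this element 2 copper elements stood 123 and 77 bases from its edge, which puts them 6184 and 6138 bases from CTR3. Many laboratory strains carry this element and make little CTR3 RNA; whether the cells used here carry it is not given in the labels. Upstream of FRE7 the looser form TTTGCNC, searched after the FRE7 letters had been seen, matched 344, 177 and 174 bases before the start, where the last pair overlap on opposite strands. The looser form is common: 23.6% of the 6000 genes held it, and 3.30% held it 2 or more times. The far-side CTR3 stretch is chrXII:941052-941131 with TTTGCTC in capitals, and the FRE7 stretch is chrXV:40388-40587 with TTTGCNC in capitals, both on the plus strand.
CTR3 far side: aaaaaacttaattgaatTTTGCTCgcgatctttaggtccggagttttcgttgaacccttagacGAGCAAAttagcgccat
FRE7: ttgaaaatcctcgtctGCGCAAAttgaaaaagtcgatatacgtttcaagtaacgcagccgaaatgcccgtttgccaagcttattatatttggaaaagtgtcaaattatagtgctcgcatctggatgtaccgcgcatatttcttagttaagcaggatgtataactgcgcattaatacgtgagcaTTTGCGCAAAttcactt

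The iron element was found before the other 6 reductase genes, FRE2, FRE3, FRE4, FRE5, FRE6 and FRE8, and before 2.33% of all genes searched. It stood 430 bases before FRE2, 427 before FRE3, 437 before FRE4, 142 before FRE6 and 330 before FRE8, and FRE5 held 2, at 331 and 230. In FRE4, FRE5, FRE6 and FRE8 the looser copper form also matched, with letters shared with the iron element. FRE2 and FRE3 are the closest pair of the family, with 77.3% identical bases over their aligned coding sequences. The stretches below are chrXI:11627-11686 (minus strand) for FRE2, chrXV:1055085-1055144 (plus strand) for FRE3, chrXIV:739491-739550 (plus strand) for FRE4 and chrXII:39582-39641 (minus strand) for FRE6, with TGCACCC in capitals. A match describes the letters and is not a measured binding site.
FRE2: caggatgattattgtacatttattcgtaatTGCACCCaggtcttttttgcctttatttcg
FRE3: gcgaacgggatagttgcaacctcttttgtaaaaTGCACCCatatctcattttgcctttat
FRE4: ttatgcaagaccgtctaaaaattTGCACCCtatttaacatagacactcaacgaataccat
FRE6: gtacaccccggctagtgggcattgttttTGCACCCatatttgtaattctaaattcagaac

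**Figure D1:**
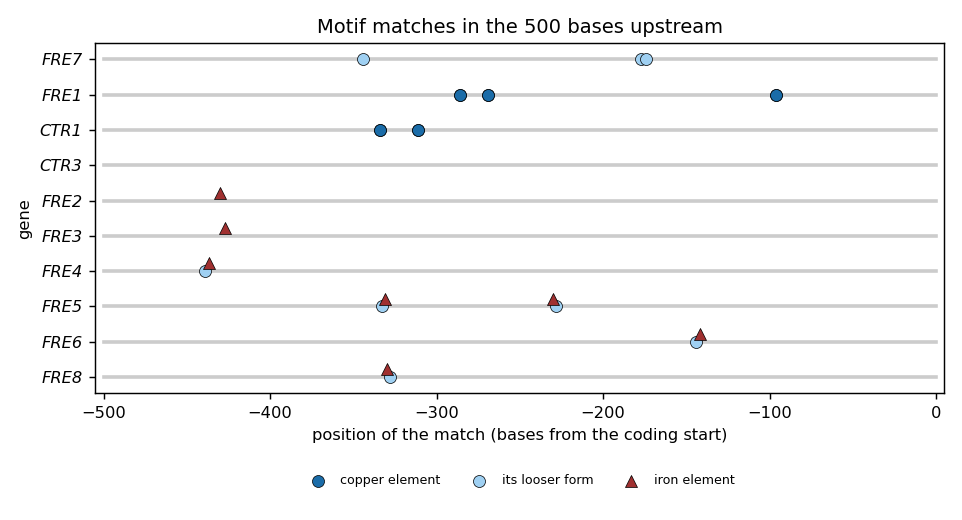
Each row is the 500 bases before the coding start of one gene, with the distance from that start in bases on the horizontal axis. Circles mark the copper element (dark) or its looser form (light) and triangles the iron element. FRE1 and CTR1 hold dark circles, FRE7 light circles alone, CTR3 no marks, and the other 6 genes triangles. Of these 6, FRE4, FRE5, FRE6 and FRE8 hold light circles as well.

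The authors' deposited table holds 1 scaling score for each gene in each series, and library values were not used here. Its unit is per fl for Cdc28-as cells and per hour for WT cells. The sources used here do not give the formula. In elutriations 1 and 3 and both WT controls many genes held the value that a straight-line slope relative to the first library takes for a gene detected there alone. In elutriation 1 that value is -0.0197 per fl, held by 104 genes within 1e-07, none of them among the 10. In elutriation 2 and the time course 2 and 3 genes held it, and 5 of the 10 genes scored below it in the time course. The lowest score of elutriation 1 over all genes was -0.264 per fl, so no starting level or fold is read from any score. Whether levels were set against the library total or against the Candida cells is likewise unknown. The median gene scored 0.00701, 0.0108 and 0.00132 per fl in elutriations 1, 2 and 3, -0.0201 per fl in the time course, and 0.136 and -0.0390 per hour in the elutriated and unelutriated WT controls. Because scales and units differ between series, each gene is also given its percentile among all genes scored in that series. The score over the median gene is the score minus the median score of the 5771 genes scored in all 3 elutriations, or minus that of all scored genes in the other series.

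Reads were few for most of these genes. The authors' median read count in elutriation 1 was 102.5 for CTR1, 75 for FRE7 and 41 for FRE1, beside a median of 19 over all 6713 genes. It was 9 for FRE3 and FRE6, 7 for CTR3 and FRE2, 2.5 for FRE5, 1 for FRE8, and FRE4 was listed at 0. Per kilobase of coding length the order was CTR1 (83.9 reads per kb), FRE7 (40.3), FRE1 (19.9), CTR3 (9.64), FRE3 and FRE6 (4.21 each), FRE2 (3.28), FRE5 (1.2) and FRE8 (0.485), with FRE4 last. These counts carry no spread here, so neighbours in that order cannot be compared. Only CTR1, FRE7 and FRE1 had 10 reads or more, and the other 7 had fewer in elutriation 1. Read counts of the other series are not in the table. No stretch of 50 bases in any of the 10 coding sequences occurs elsewhere in the R64 genome, and no annotated gene overlaps them.

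In the elutriated, arrested cells the genes with the highest means over the median gene were FRE7, CTR1, FRE1 and CTR3. FRE7 (YOL152W, chromosome XV, 40748 to 42610, R64) encodes a reductase-like protein made under copper shortage. It scored 0.750, 0.112 and 0.0715 per fl in elutriations 1, 2 and 3, at the 99.9th, 96.7th and 98.1th percentiles. All 3 values lay far up their series, but that of elutriation 1 was several times the others.

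CTR1 (YPR124W, chromosome XVI, 786208 to 787428), the main high-affinity copper importer of the plasma membrane, scored 0.340, 0.0783 and 0.0271 per fl. These values stood at the 99.2th, 93.4th and 90.3th percentiles. FRE7 and CTR1 were the 2 of the 9 genes with scores in all 3 elutriations that stood at the 90th percentile or more in each, as did 1.02% of the 5771 genes. FRE1 (YLR214W, chromosome XII, 568567 to 570627), a surface reductase for both copper and iron, scored 0.178, 0.0722 and 0.00378 per fl. It was high in elutriations 1 and 2 (97.4th and 92.2th percentiles) and near the middle in elutriation 3 (57.7th).

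CTR3 (YLR411W, chromosome XII, 947253 to 947978), the second high-affinity copper importer, scored 0.104, 0.0164 and 0.0698 per fl. Its percentiles were 93.5, 58.9 and 98.1, so elutriation 2 was the lower one, and its median count was 7 reads. Over the median gene the mean of the 3 elutriations was 0.305 ± 0.380 per fl for FRE7, 0.142 ± 0.167 for CTR1, 0.0781 ± 0.0857 for FRE1 and 0.0567 ± 0.0466 for CTR3 (SD, n = 3). For the first 3 the SD exceeded the mean. Elutriation 1 was the highest for each, and without it the means were 0.0855, 0.0463 and 0.0316 per fl. CTR3 without it had 0.0367 per fl. The labels do not say whether the elutriations came from separate cultures.

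**Figure D2:**
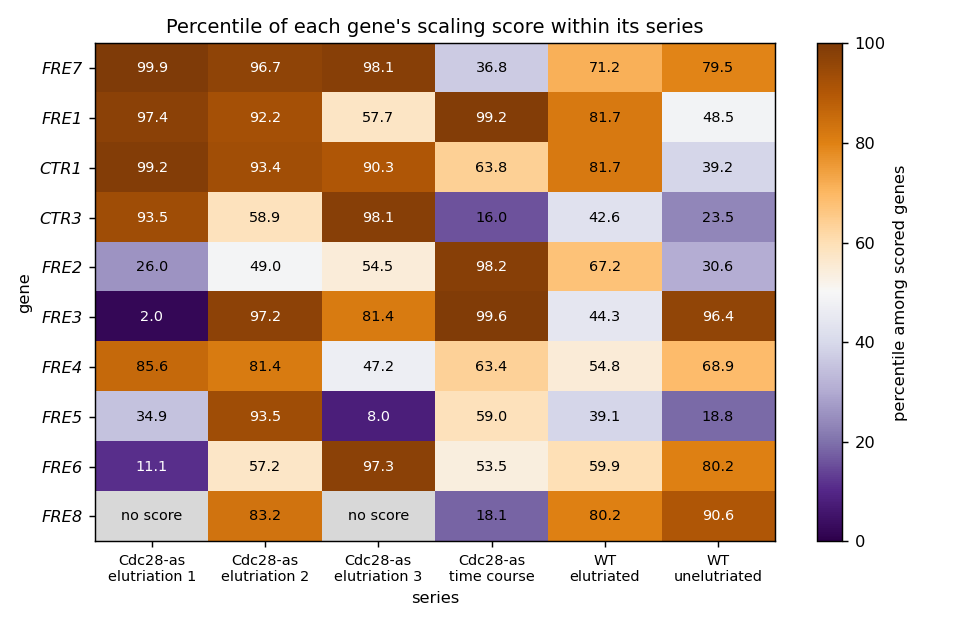
Rows are the 10 genes and columns the 6 series; each cell gives the percentile of the gene's score among all genes scored in that series, on a colour scale from 0 to 100, and grey marks a missing score. FRE7 stands between 96.7 and 99.9 in the 3 Cdc28-as elutriations and at 36.8 in the Cdc28-as time course, while FRE1, FRE2 and FRE3 stand at 98.2 or more in the time course.

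The reductase genes with an iron element showed no common direction in the elutriations. FRE2 (YKL220C, chromosome XI, 9091 to 11226), the other major surface reductase, scored -0.00718, 0.0103 and 0.00270 per fl, at the 26th, 49.0th and 54.5th percentiles. FRE3 (YOR381W, chromosome XV, 1055545 to 1057680), which reduces iron bound to siderophores, scored -0.0401, 0.123 and 0.0158 per fl. That runs between the 1.97th percentile in elutriation 1 and the 97.2th in elutriation 2, with 81.4 in elutriation 3.

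FRE4 (YNR060W, chromosome XIV, 739951 to 742110), also a siderophore iron reductase, scored 0.0581, 0.0398 and 0.000674 per fl. FRE5 (YOR384W, chromosome XV, 1061564 to 1063648), a reductase-like protein, scored -0.00198, 0.0795 and -0.0141 per fl. FRE6 (YLL051C, chromosome XII, 37333 to 39471), which acts at the vacuole, scored -0.0191, 0.0151 and 0.0586 per fl. Each of these 3 exceeded the median gene in 2 elutriations or fewer. FRE8 (YLR047C, chromosome XII, 239347 to 241407), another reductase-like protein, had a score in elutriation 2 alone, 0.0435 per fl at the 83.2th percentile. FRE2 was the one gene with a mean under the median gene, -0.00479 ± 0.00848 per fl (SD, n = 3).

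Of the 9 genes with scores in all 3 elutriations, FRE7, CTR1, FRE1 and CTR3 lay above the median gene in each, and 0 lay below it in each. Over all 5771 such genes the shares were 22.3% above and 22.5% below; since FRE7 chose the group, nothing is read from the counts. A limma one-sample moderated test over all 5771 genes called 0% of them at a Benjamini-Hochberg adjusted p under 0.05, with 519 genes at an unadjusted p under 0.05. Scores above 0 were held by 5 of 9 genes in elutriation 1, 10 of 10 in elutriation 2 and 8 of 9 in elutriation 3, beside 61%, 69.1% and 55.3% of all scored genes.

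**Figure D3:**
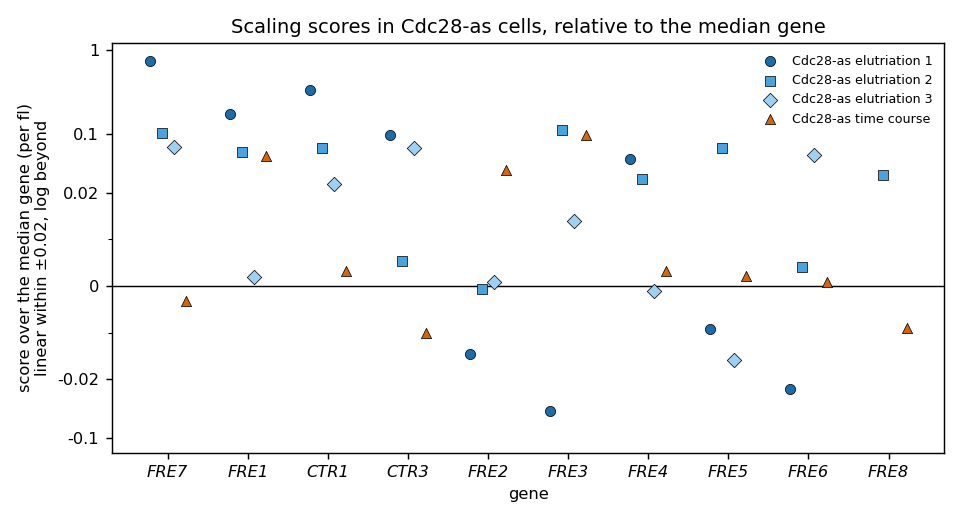
The vertical axis is the score over the median gene in per fl, linear within ±0.02 and logarithmic beyond, for each of the 10 genes in the 4 Cdc28-as series. FRE7, FRE1, CTR1 and CTR3 lie above 0 in all 3 elutriations, and the time course marker (triangle) is under 0 for FRE7, CTR3 and FRE8.

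The unelutriated time course of the same genotype was not used to choose the group, and the genes stood in another order there. It has 1 score per gene and no repeat, so it allows no test. FRE3 scored 0.0765 per fl (99.6th percentile), FRE1 0.0340 (99.2th) and FRE2 0.0171 (98.2th). These 3 of 10 genes scored above 0, which 4.68% of the 6649 scored genes did. FRE2 and FRE3 had 7 and 9 reads in elutriation 1.

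FRE7 scored -0.0233 per fl in the time course, at the 36.8th percentile, beside its high scores in the elutriated cells. CTR3 scored -0.0303 per fl at the 16.0th percentile and CTR1 -0.0168 per fl at the 63.8th. Of the 4 copper-responsive genes FRE1 alone stood at the 90th percentile or more here. FRE4, FRE5 and FRE6 lay just above the median gene, at the 63.4th, 59.0th and 53.5th percentiles, and FRE8 scored -0.0293 per fl at the 18.1th. Elutriated and unelutriated arrests differ in sorting, in starting size and in the number of libraries, and with 1 unelutriated series the difference was not tested.

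WT cells given the same inhibitor show how the genes scored without the sensitive kinase. In the elutriated WT control all 10 genes scored above 0, as did 69.6% of the 6341 scored genes. FRE1 and CTR1 were close, at 1.74 per hour each (81.7th percentile for both), followed by FRE8 at 1.46 per hour (80.2th) and FRE7 at 0.548 per hour (71.2th). FRE2 scored 0.394 per hour, FRE6 0.242, FRE4 0.183, FRE3 0.0922, CTR3 0.0804 and FRE5 0.0580. None reached the 90th percentile in that control, whose scores ran up to 378 per hour over all genes.

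In the unelutriated WT control 5 of 10 genes scored above 0, as did 34.2% of the 6332 scored genes. FRE3 scored 0.294 per hour (96.4th percentile), FRE8 0.132 (90.6th), FRE6 0.0519 (80.2th), FRE7 0.0476 (79.5th) and FRE4 0.00837 (68.9th). CTR1 scored -0.0651 per hour (39.2th), FRE1 -0.0422 (48.5th), FRE2 -0.0860 (30.6th), CTR3 -0.104 (23.5th) and FRE5 -0.116 (18.8th). FRE3 thus stood high in both unelutriated series, at the 99.6th percentile in Cdc28-as cells and the 96.4th in WT cells. By percentile CTR1, FRE1, FRE2, CTR3 and FRE5 stood higher in elutriated than in unelutriated WT cells, and FRE7, FRE3, FRE4, FRE6 and FRE8 stood lower, each on 1 score per series. Scores per hour and per fl are not compared in size.

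Other genes of copper and iron handling were read from lists drawn up with earlier results of these data known. The 20 other copper genes join a vacuolar transporter, chaperones, detoxification genes, regulators and mitochondrial delivery genes. Of these 20, 4 stood higher than the median gene throughout the elutriations and 8 lower, beside 22.3% and 22.5% of all 5771 genes. The 8 include CUP1-1 and CUP1-2, whose scores were nearly equal (-0.0172 and -0.0173 per fl in elutriation 2). Whether these 2 genes share reads was not checked. The list's median of means was -0.00659 per fl over the median gene, against 0.00249 over all genes. By mean percentile over the 4 Cdc28-as series, among genes with 10 reads or more here and in the lists below, the highest were REE1, at 0.0489, 0.0120 and 0.0162 per fl in elutriations 1 to 3, and the mitochondrial copper-delivery gene COX23, at 0.0653, 0.00633 and 0.0130 per fl. The lowest were PIC2, a mitochondrial carrier for copper and phosphate, at -0.00704, -0.0204 and -0.00889 per fl, and the copper-binding metallothionein CRS5, at -0.0232, -0.0230 and -0.0159 per fl. CRS5 stood at the 5.97th, 2.47th and 5.76th percentiles, at the opposite end from FRE7 and CTR1. IRC7 of the same list, left out of that ranking at 8 reads, stood at the 94.5th, 88.3th and 81.2th percentiles. It was named after its values were seen. MAC1, the copper-sensing activator, had no common side, with percentiles of 25.3, 71.8 and 88.6 in elutriations 1, 2 and 3; it was named after its values were seen.

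Iron uptake and siderophore genes, the main targets of Aft1, stood apart between the 2 kinds of arrest. In the elutriations 1 of the 17 scored genes lay above the median gene throughout and 10 below, beside 22.3% and 22.5% of all 5771 genes. The list's median of means was -0.00788 per fl over the median gene. Its median percentiles were 40.1, 35.4 and 13.4 in elutriations 1, 2 and 3, so elutriation 3 was clearly the lowest. In the time course 16 of 18 stood at the 80th percentile or more, beside 20% of all scored genes, and 8 of 18 scored above 0. The list median was the 94.1th percentile there, against the 45.3th in unelutriated WT cells. Of the list, 15 of 18 genes hold the iron element in the 500 bases before their start. In the other lists, 7 of 14 iron regulators and stores reached the 80th percentile in the time course. So did 5 of 11 zinc, manganese and magnesium transport genes and 2 of 20 other copper genes.

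The cell wall mannoproteins FIT2 and FIT3, which hold siderophore iron at the surface, lie between FRE3 and FRE5 on chromosome XV. FIT3 scored -0.0189, -0.0184 and -0.0172 per fl in the elutriations and 0.00688 per fl (97.1th percentile) in the time course. FIT2 scored -0.0184, -0.0144 and -0.0147 per fl in the elutriations and 0.000697 per fl (95.6th) in the time course. FIT3 also scored 45.9 per hour in elutriated WT cells, at the 99.0th percentile. At the other end the siderophore transporter gene ARN1 scored 0.0116, 0.125 and -0.000249 per fl, and VHT1, the vitamin H (biotin) transporter gene, 0.136, 0.0789 and 0.00233 per fl. Their time course percentiles were 98.5 and 97.6, and ARN1 had a median of 11.5 reads.

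**Figure D4:**
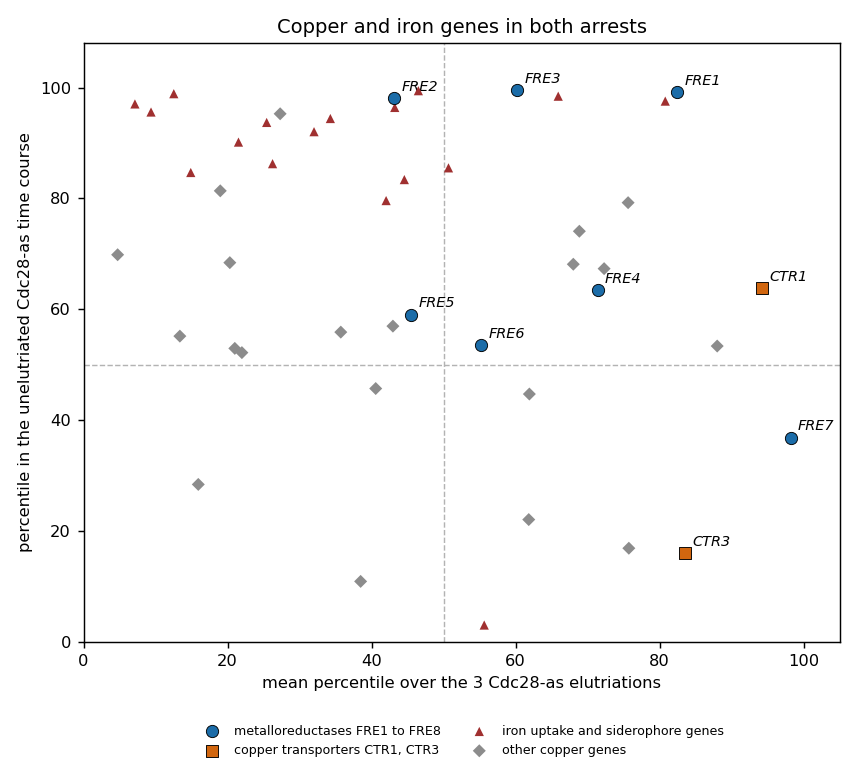
Each point is a gene scored in all 3 elutriations, with its mean percentile over the Cdc28-as elutriations on the horizontal axis and its percentile in the Cdc28-as time course on the vertical axis; dashed lines mark the 50th percentile. FRE1, FRE2 and FRE3 share the top of the plot with most iron uptake genes, while FRE7 and CTR3 lie at the lower right.

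Iron regulators and stores had 4 of 14 genes above the median gene throughout and 1 below, beside 22.3% and 22.5% of all genes. The median of means for this list was 0.00798 per fl over the median gene. Their highest genes were GRX4, a glutaredoxin that restrains Aft1, at 0.0461, 0.0199 and 0.0186 per fl, and TYW1, an iron-sulphur enzyme of tRNA modification, at 0.0712, 0.0490 and 0.0177 per fl. Their lowest were FRA1, a repressor of the iron regulon, at 0.00313, -0.00518 and -0.00569 per fl, and CTH1, which encodes an mRNA-binding protein, at 0.00395, 0.0124 and -0.00848 per fl. Zinc, manganese and magnesium transport genes had 2 of 11 above and 2 below, beside the same shares of all genes, with a median of means of -0.000632 per fl over the median gene. ZRT3, which exports zinc from the vacuole, and ZRC1, which imports it there, were highest among genes with 10 reads or more, at 0.0206, 0.0207 and 0.000935 per fl and at 0.0349, 0.122 and 0.00279 per fl. The Golgi manganese and calcium pump gene PMR1 (-0.00114, 0.00941 and -0.00587 per fl) and the manganese transporter gene SMF2 (-0.00708, -0.00630 and -0.00784 per fl) were lowest.

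The genes whose percentiles over all 6 series were most like those of FRE7, by Euclidean distance among genes with 10 reads or more, were ACL4, CYK3, SSF2, RSM25 and SQT1. ACL4, a chaperone of a ribosomal protein, was nearest at a distance of 11.7 percentile points and scored 0.225, 0.0799 and 0.0400 per fl in the elutriations and -0.0240 per fl in the time course. CYK3, a cytokinesis gene, followed at 12.5 points with 0.155, 0.364 and 0.0338 per fl in the elutriations and -0.0240 per fl in the time course. SSF2 stood at 20.3 points, RSM25 at 20.5 and SQT1 at 21.7. Of the other 9 metalloreductase and copper transporter genes, 7 had too few reads to enter this ranking.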

How the data were processed

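RNA came from hot acid phenol extraction and libraries from the NuGEN Ovation Universal system, per the labels' protocols. The submitters' processing notes name Bowtie2 and build R64. The sources used here do not give the counting, its strand setting or the normalization. The authors deposited 1 score per gene and series, and a signal column headed as the median read count of elutriation 1, with no scaling named. Depth per library is unknown, so no counting interval is given. Emptied lines of the table (4) were not analysed.

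Scores were ranked within each series, and the median gene was taken off. limma 3.58.1 (R 4.3.3) ran a one-sample moderated test over all genes with Benjamini-Hochberg adjustment at 0.05; it was tested on simulated data. Upstream windows came from RefSeq's R64 genome, and coding sequences, used in place of the proteins, were aligned with Biopython 1.88. The table holds no columns for single libraries. Members and lists were chosen with earlier results of these data known. The rule for named genes takes all 10 members, the 2 highest and 2 lowest genes of each list by mean percentile over the Cdc28-as series among genes with 10 reads or more, and the 5 genes nearest to FRE7; the score above 0, the looser motif, the far-side window, FRA2 matched by synonym and other genes named were chosen after values were seen. Alternatives were another median gene, no centring, scaling by the median absolute deviation, a minimum of 10 reads, and leaving out each elutriation.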

Additional observations from a re-analysis of the deposited data

Results flagged for a closer look

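FRE7 and CTR3 scored above the median gene in every Cdc28-as elutriation and below it in the unelutriated Cdc28-as time course. Relative to the median gene FRE7 scored 0.743, 0.101 and 0.0697 per fl in elutriations 1, 2 and 3, against -0.00321 per fl in the time course. CTR3 scored 0.0966, 0.00539 and 0.0680 per fl in the elutriations, against -0.0102 per fl in the time course. The difference was not tested, since the unelutriated arrest has 1 score per gene, and FRE7 was chosen for its scores in the elutriations.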

How the results depend on the processing

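No paired analysis was possible because each series has 1 score per gene and the library numbers carry no values. limma called 0 genes under each of the 6 alternatives run, with between 154 and 775 genes at an unadjusted p under 0.05. The FRE7 mean ran from 0.0855 per fl without elutriation 1 to 0.422 per fl without elutriation 3. It was 0.311 per fl without centring, and 18.9 median absolute deviations over the median gene when scaled by them. Leaving out 1 elutriation gave between 4 and 6 genes above the median gene in both others, and between 0 and 1 below (FRE5 without elutriation 2, FRE2 without elutriation 3). Without centring 5 genes scored above 0 in all 3, and with a minimum of 10 reads 3 genes lay above the median gene. Under the alternatives in per fl, all 45 means compared stayed within 1 SD of the reported ones, and those SDs are wide. Leaving out 1 of 3 values cannot move a mean by 1 SD, so for those alternatives this outcome was fixed beforehand and shows nothing. Among genes with 10 reads or more, the 58 member percentiles moved by -9.22 to 2.23 points. Of 16 list counts 4 moved by over 1.5 times, each by 1 or 2 genes.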

Other observations

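Outside the metalloreductase and copper transporter genes, 18 genes hold 2 or more copper elements in the 500 bases before their start. Their median percentiles were 43.7, 54.5 and 64.8 in elutriations 1, 2 and 3 and 41.2 in the time course, and 0 of 18, 5 of 18 and 4 of 17 reached the 80th percentile in elutriations 1, 2 and 3, beside the 20% of all genes that this percentile sets. Over the 133 other genes with at least 1 iron element, which include 15 of the iron uptake list described above, the medians were 41.6, 38.5 and 44.4 in the elutriations and 63.2 in the time course. For the 11 of them with 2 or more iron elements, the medians were 14.3, 12.2 and 8.01 in the elutriations and 93.7 in the time course. These 11 include FTR1, FIT1, FIT2, FIT3, ENB1 and TIS11 of the iron uptake list and CCC2 of the other copper genes. Their medians thus largely repeat values already described and are not a separate observation.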
